A study of Homo sapiens with 12 samples.

Results

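Genes that transmit, restrain or answer Wnt signals were followed in DLD1 cells, a human line derived from a colorectal tumour. The 10 genes were chosen by symbol: CTNNB1, TCF7L2, AXIN2, RNF43, ZNRF3, LGR5, MYC, CCND1, SOX9 and ASCL2. All 10 were among the 58302 genes of the deposited gene table, and 2 of the 2364 regions in the deposited table of differential peaks lay in them. Cells carried a short hairpin RNA that targets NAT10 (shNAT10) or a control hairpin (shNC), and all were at passage 5. NAT10 writes N4-acetylcytidine (ac4C), an acetyl mark on RNA bases. Each hairpin had 3 input libraries of fragmented total RNA and 3 libraries immunoprecipitated with an antibody to ac4C. No sequence of the hairpins, promoter, clone number or time after transduction was given in the sources used here, nor whether replicates were separate cultures. The p-values therefore cover only spread within these samples, and the limma test used below takes it largely from genes of like mean log2 level.

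In the canonical Wnt pathway a destruction complex built on APC and AXIN proteins marks beta-catenin for degradation. Wnt ligands bind Frizzled and LRP receptors and stop that complex, so that beta-catenin enters the nucleus and switches on target genes together with TCF/LEF proteins. Most colorectal cancers, DLD1 included, carry a truncated APC, which leaves beta-catenin signalling on without ligand. The pathway also holds its own brakes: AXIN2, RNF43 and ZNRF3 are induced by it and act against it.

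Gene levels are FPKM, fragments scaled to gene length and library depth, as the authors deposited them for the 6 input libraries. The columns named sh were taken as shNAT10 because shNC had columns of its own. The immunoprecipitated libraries had no column in that table, so antibody enrichment in single libraries was not analysed here. Whole fragments recovered from the FPKM values numbered 1224097 to 1303818 on genes in the libraries labelled shNAT10 and 2636810 to 2758067 in shNC. Of 8140 protein-coding genes tested, 35.6% to 43.4% were at 0 in each library labelled shNAT10 and 28.0% to 28.6% in each shNC library. These include genes that every cell uses: HPRT1, a purine salvage enzyme named after its values were seen, was listed at 157, 227 and 0 FPKM, against 0, 0.375 and 0.359. A value of 0 is therefore given only as listed, and not as lack of expression. The targeted gene did not follow its label throughout. NAT10 was at 0, 28.1 and 31.4 FPKM in the libraries labelled shNAT10, against 1.24, 3.95 and 2.89 in shNC. Replicates 2 and 3 labelled shNAT10 thus lay above every shNC library and replicate 1 below, so the groups overlapped. The difference in mean log2(FPKM + 1), shNAT10 minus shNC, was 1.48 (SE 1.86, limma adjusted p = 0.754). Each direction below is that of the label. Epithelial keratins were abundant, with KRT8 at 5643, 5573 and 5866 FPKM in the libraries labelled shNAT10 and 3112, 3774 and 3294 in shNC. Of 13 epithelial markers 12 were above 0, and the list summed to 8242 to 8740 and 5267 to 5413 FPKM, mostly from KRT8. Its 11 tested members did not move as one: 6 differences were positive and 5 negative, down to -3.32. In 3 of them all libraries labelled shNAT10 lay above all shNC libraries and in 2 below, against 2.89% and 6.72% of all tested genes. Of 11 fibroblast and muscle markers 8 were above 0, and FAP, PDGFRA and THY1 were at 0 throughout. The list summed to 9.62 to 76.9 FPKM in the libraries labelled shNAT10 and 0 to 3.81 in shNC. Its 3 tested members were TAGLN, ACTA2 and PDGFRB. TAGLN was at 68.9, 2.04 and 1.49 FPKM, against 0 in all shNC libraries, without overlap. ACTA2 was at 0, 21.98 and 1.403 FPKM, against 3.67, 0 and 0. PDGFRB was at 7.97, 0.561 and 0 FPKM, against 0 in all shNC libraries. None of the 3 had a limma adjusted p under 0.05. Endothelial and erythroid markers summed to at most 1.44 and leukocyte markers to at most 2.29 FPKM in the libraries labelled shNAT10, and both to 0 in shNC. The part of these other markers in the results below was not tested.

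By level per length the order of the 10 genes over all 6 libraries was MYC (mean 89.4 FPKM), CCND1 (59.7), AXIN2 (48.2), CTNNB1 (27.0), RNF43 (15.5), SOX9 (14.5), TCF7L2 (8.03), ZNRF3 (2.47), ASCL2 (1.06) and LGR5 (0.103). No neighbours in that order differed beyond their spread over libraries. MYC lay above CCND1 in 3 of 6 libraries, and RNF43 above SOX9 in 3 of 6. What did separate was the top from the bottom: the lowest values of MYC (29.3) and CCND1 (32.5) exceeded the highest values of TCF7L2 (23.7), ZNRF3 (11.01), ASCL2 (2.72) and LGR5 (0.619).

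**Figure D1:**
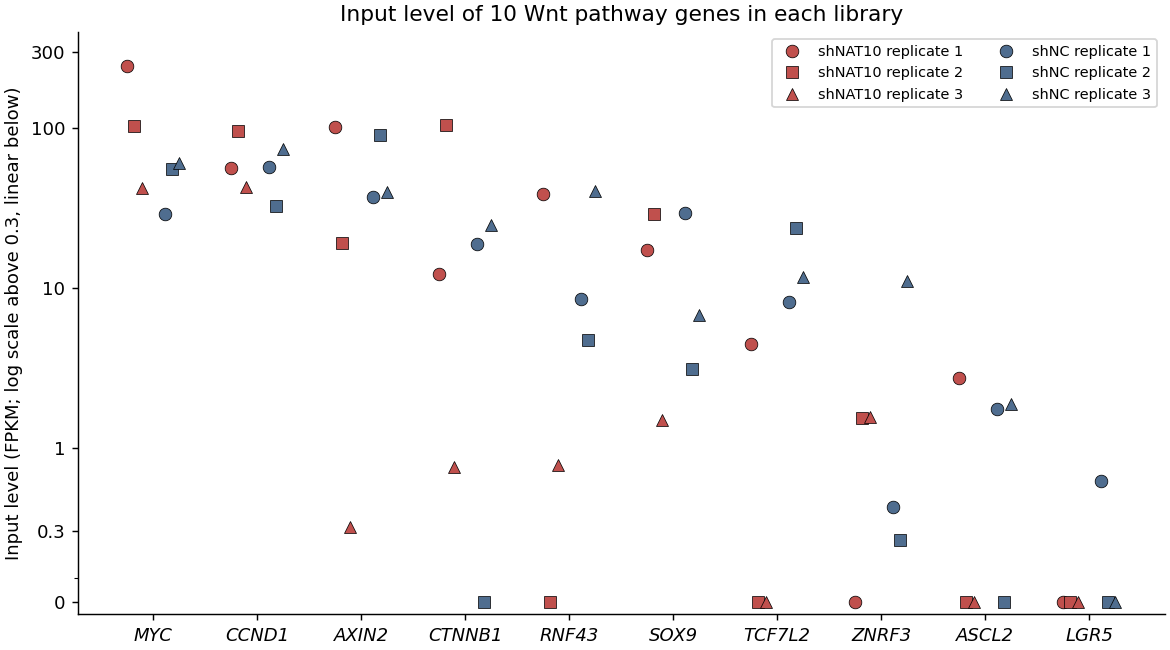
Input level in FPKM (log scale above 0.3, linear below) of each gene in each library, with shNAT10 in red to the left of shNC in blue and a symbol for each replicate number. MYC and CCND1 stay above 29 FPKM in all 6 libraries, whereas CTNNB1, RNF43, TCF7L2, ZNRF3, ASCL2 and LGR5 each have at least 1 library at 0.

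Input levels were compared with limma on log2(FPKM + 1) over all 10517 genes with a mean of at least 1 FPKM. LGR5 fell below that minimum and 9 of the 10 genes were tested. None of the 9 passed limma at a Benjamini-Hochberg adjusted p under 0.05, none had an unadjusted p under 0.05, and voom, limma's test on the recovered fragments, also called none. Over all genes, limma called 0.19%, or 9 genes higher and 11 lower, while 3.7% stayed under 0.05 before adjustment. Of the 8140 tested protein-coding genes it called 0 higher and 0 lower. Voom called 0.903% of all genes, and before adjustment 7.78% stayed under 0.05, as did 1 of the 9 genes, TCF7L2. Differences are shNAT10 minus shNC on this log2 scale, which understates changes of low genes, and the median over all tested genes was -0.49. That median was -0.74 on the TPM scale and -0.08 after quantile normalization. The 9 genes had a median of -0.37, with 4 positive and 5 negative differences. Their median was 0.17 after quantile normalization and 0.89 with shNAT10 replicates 2 and 3 both left out. At a mean of at least 5 FPKM, which dropped ZNRF3 and ASCL2, the median of the remaining 7 was 0.16. The sign of the median thus depended on these settings. Fewer transcripts per cell and fewer expressing cells cannot be told apart in bulk RNA.

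**Figure D2:**
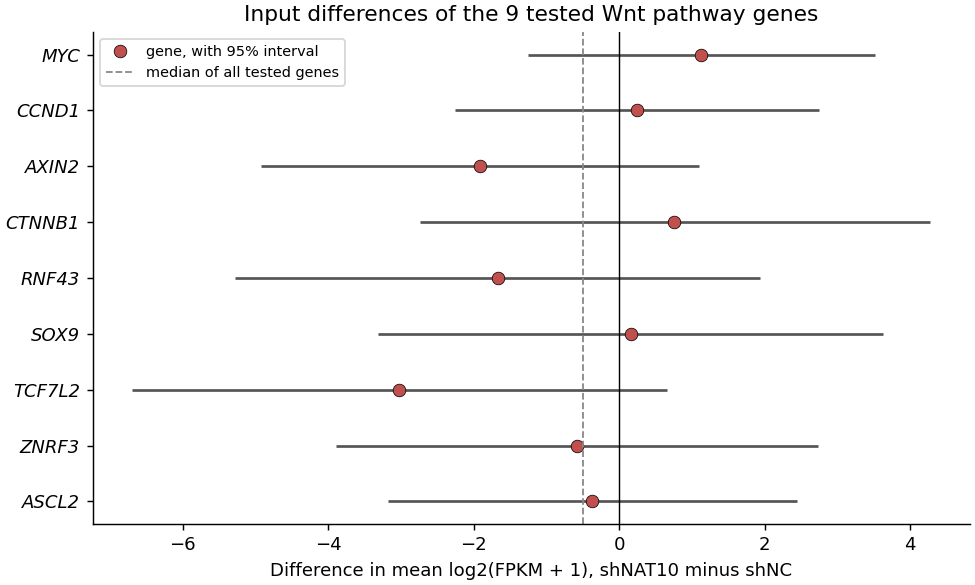
Difference in mean log2(FPKM + 1), shNAT10 minus shNC, with its 95% interval from limma for the 9 tested genes, ordered by mean level. Every interval crosses 0, and the dashed line marks the median of all tested genes at -0.49.

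The transducers of the signal were beta-catenin and its DNA-binding partner. CTNNB1, which encodes beta-catenin (ENSG00000168036, chr3:41199505-41240443 in GRCh38), was at 12.3, 105 and 0.757 FPKM in the libraries labelled shNAT10, against 18.8, 0 and 24.8 in shNC. These came from 113, 1043 and 6 fragments, against 421, 0 and 561. The highest and the second lowest of the 6 values were thus replicates of each other, and the only 0 was an shNC library, where 3 fragments would have given 0.138 FPKM. Its difference was 0.76 (SE 1.78, 95% interval -2.74 to 4.27, n = 3 per group, limma adjusted p = 0.894). It was -0.73 without shNAT10 replicate 2, -0.74 without shNC replicate 2, 2.23 without shNAT10 replicate 3, and 1.42 and 1.60 without shNC replicates 1 and 3.

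TCF7L2 (ENSG00000148737, chr10:112950247-113167678), the main TCF factor of the intestine, was at 4.49, 0 and 0 FPKM in the libraries labelled shNAT10, against 8.21, 23.7 and 11.8 in shNC. Fragments numbered 42, 0 and 0, against 187, 524 and 272. All 3 libraries labelled shNAT10 lay below all 3 shNC libraries, the only gene of the 10 whose groups did not overlap. Among all tested genes 6.72% did so in that direction, so 1 of 9 is near the background. The difference was -3.02 (SE 1.87, 95% interval -6.69 to 0.66, limma adjusted p = 0.754) and by voom -6.01 (SE 2.27, limma adjusted p = 0.321). The difference kept its sign in all 18 alternatives, from -7.43 with a pseudocount of 0.01 to -1.38 with shNAT10 replicates 2 and 3 both left out, and passed in none of them. At 0 fragments, the floor of 3 fragments stood at 0.297 and 0.372 FPKM in those 2 libraries.

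Next came the brakes. AXIN2 (ENSG00000168646, chr17:65528563-65561648), a scaffold of the destruction complex and a classic read-out of Wnt activity, was at 101, 19.0 and 0.319 FPKM in the libraries labelled shNAT10, against 37.4, 90.9 and 40.0 in shNC. From replicate to replicate the libraries labelled shNAT10 spanned 318-fold (737, 149 and 2 fragments), and shNC 2.43-fold (661, 1561 and 716). The groups overlapped, with 1 library labelled shNAT10 above every shNC library and 2 below. Its difference was -1.91 (SE 1.53, 95% interval -4.92 to 1.10, limma adjusted p = 0.754), -3.35 without shNAT10 replicate 1, -0.21 without shNAT10 replicate 3, -2.63 by voom and 0.97 with shNAT10 replicates 2 and 3 both left out.

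RNF43 (ENSG00000108375, chr17:58352500-58417534) and ZNRF3 (ENSG00000183579, chr22:28883572-29057488) encode related membrane ubiquitin ligases that remove Frizzled receptors from the cell surface. RNF43 was at 38.5, 0 and 0.779 FPKM in the libraries labelled shNAT10, against 8.51, 4.71 and 40.7 in shNC. ZNRF3 was at 0, 1.53 and 1.56 FPKM, against 0.424, 0.262 and 11.01. In both genes the highest library was shNC replicate 3, and the other libraries did not share an order. The differences were -1.67 for RNF43 (SE 1.83, limma adjusted p = 0.754) and -0.58 for ZNRF3 (SE 1.68, limma adjusted p = 0.919). RNF43 was -3.30, -0.65 and -1.06 without shNAT10 replicates 1, 2 and 3, -0.84 without shNC replicate 3, and 1.59 with shNAT10 replicates 2 and 3 both left out. ZNRF3 was -0.13 without shNAT10 replicate 1, -1.06 and -1.15 without shNC replicates 1 and 2, and 0.17 after quantile normalization.

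The stem cell genes had few fragments. LGR5 (ENSG00000139292, chr12:71439129-71586310), the R-spondin receptor that marks intestinal stem cells, was at 0 in all 3 libraries labelled shNAT10, against 0.619, 0 and 0 FPKM in shNC. A single library held 11 fragments, and the 3 libraries labelled shNAT10 allowed up to 0.381 to 0.477 FPKM at a floor of 3 fragments, so a difference was not detectable at this depth. ASCL2 (ENSG00000183734, chr11:2268498-2270588), a basic helix-loop-helix factor of the same stem cells, was at 2.72, 0 and 0 FPKM, against 1.76, 0 and 1.89. These rested on 7, 0 and 0 fragments, against 11, 0 and 12. The groups overlapped, and the difference was -0.37 (SE 1.43, limma adjusted p = 0.942), 0.23 after quantile normalization and 0.90 with shNAT10 replicates 2 and 3 both left out.

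Among the growth and progenitor targets, MYC (ENSG00000136997, chr8:127735434-127742951), a transcription factor that drives growth, was at 246, 103 and 42.3 FPKM in the libraries labelled shNAT10, against 29.3, 55.7 and 60.3 in shNC. Its means were 130.4 ± 104 and 48.4 ± 16.8 FPKM (SD, n = 3 each). Replicates 1 and 2 labelled shNAT10 lay above every shNC library, and replicate 3 between them, so the groups overlapped. Its difference was 1.13 (SE 1.21, 95% interval -1.25 to 3.52, limma adjusted p = 0.754), positive in all 18 alternatives and past the threshold in none. It ran from 0.51 without shNAT10 replicate 1 to 2.39 with shNAT10 replicates 2 and 3 both left out, and was 1.76 without shNAT10 replicate 3.

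CCND1 (ENSG00000110092, chr11:69641156-69654474), the cyclin D1 of the G1 phase, was at 56.5, 95.6 and 42.7 FPKM in the libraries labelled shNAT10, against 56.9, 32.5 and 74.3 in shNC. The groups lay over each other, at 64.9 ± 27.5 and 54.6 ± 21.0 FPKM (SD, n = 3 each), from 247 to 692 and 515 to 1230 fragments. Its difference of 0.24 had the 95% interval -2.26 to 2.75 (SE 1.27, limma adjusted p = 0.959), which leaves room for changes of several fold either way. It was -0.07 without shNAT10 replicate 2, -0.08 without shNC replicate 2 and -0.03 on the TPM scale, and 0.50 without replicate 3 of either hairpin. SOX9 (ENSG00000125398, chr17:72121020-72126416), a factor of crypt progenitors, was at 17.4, 29.0 and 1.49 FPKM, against 29.5, 3.09 and 6.82. Its difference of 0.16 (SE 1.76, limma adjusted p = 0.983) was negative in 6 of 18 alternatives, among them -0.55 and -0.48 without replicate 2 labelled shNAT10 or shNC, and reached 1.24 without shNAT10 replicate 3.

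Spread between replicates differed among the 9 genes. The SD within groups on the log2 scale was 0.59 for CCND1, 0.97 for MYC and 1.13 for TCF7L2, against medians of 2.42, 2.27 and 2.11 for genes of like mean level, within 0.25 on the log2 scale. Only 8.01%, 21.6% and 5.71% of such genes had a smaller SD. CTNNB1 had the largest SD of the 9, 2.79, against 2.54 for genes of its level. Swings of this kind were common in the whole table. Of coding genes with at least 100 fragments in one library, 72.3% had 10 or fewer in another library labelled shNAT10, and 61.0% did so in shNC. Among the 10, these were CTNNB1, RNF43, AXIN2 and SOX9 in the libraries labelled shNAT10 (4 of 6), and CTNNB1 and ZNRF3 in shNC (2 of 8). Limma draws each SE toward a trend over the mean of log2(FPKM + 1), which is not the measure that chose the genes of like level above. The SEs of all 9 genes reflect that trend more than their own replicates. For MYC, CCND1, TCF7L2, SOX9, ZNRF3 and ASCL2 this made the SE larger than their own replicates would give. For CTNNB1 and AXIN2 it made the SE smaller, and for RNF43 only slightly smaller.

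**Figure D3:**
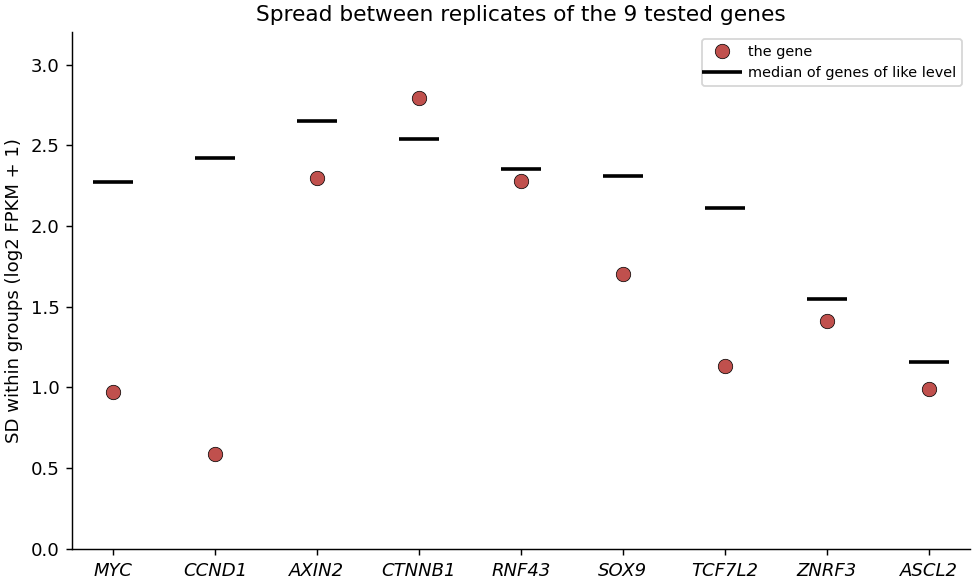
SD within groups of log2(FPKM + 1) for each of the 9 tested genes (points), ordered by mean level, with the median for genes of like mean level (bars). CCND1 at 0.59, MYC at 0.97 and TCF7L2 at 1.13 lie well under their bars, and CTNNB1 at 2.79 lies above.

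Library by library, the 10 genes summed to 479, 354 and 89.9 FPKM in the libraries labelled shNAT10 and to 191, 211 and 272 FPKM in shNC. Replicate 3 labelled shNAT10 was lowest, with 5 of the 9 tested genes under 1 FPKM and 434 fragments on all 10, against 2800 and 2535 in replicates 1 and 2. That library was not the one with most genes at 0, as 35.6% of tested coding genes were at 0 there, against 43.4% and 43.1% in replicates 1 and 2. Over the 36 pairs of the 9 tested genes, the median Pearson correlation of log2 levels across the 6 libraries was 0.29, from -0.40 (CCND1 with TCF7L2) to 0.97 (CCND1 with CTNNB1). These points share their libraries and depth, and the values are a description.

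For the 3 most abundant genes, the genes with the most similar pattern were sought by Pearson correlation across the 6 libraries among the 10516 other tested genes. MYC was most like GPR108 (r = 0.978), ADD1 (0.965) and the antisense RNA AL592166.1 (0.957). CCND1 was most like ZNF460 (0.983), CTNNB1 (0.972) and SCARNA5 (0.959). AXIN2 was most like TBCA (0.987), the antisense RNA AC073611.1 (0.977) and PPIA (0.976). PPIA, a housekeeping peptidyl-prolyl isomerase, itself ran at 169, 28.8 and 3.96 FPKM in the libraries labelled shNAT10, against 94.6, 95.2 and 57.2 in shNC. Whether reads were counted by strand was not stated, so an antisense RNA and the gene opposite cannot be told apart. With 6 libraries such matches are frequent: 78 genes exceeded r = 0.9 with MYC, 23 with CCND1 and 51 with AXIN2.

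The rest of the pathway was read from 6 lists that held 138 further symbols, of which 137 were in the table, 88 were above 0 in some library and 65 were tested. None of the 65 passed limma, none had an unadjusted p under 0.05, and none passed by voom, where 12 (18.5%) had an unadjusted p under 0.05, against 7.78% of all tested genes. Their median difference was -1.05, against -0.49 over all tested genes. In 12 of 65 (18.5%) all libraries labelled shNAT10 lay below all shNC libraries, against 6.72% of all tested genes, and in 2 (3.08%) above, against 2.89%. With shNAT10 replicate 1 as the only library of its group, 23 (35.4%) lay below all shNC libraries, against 19.9% of all tested genes, and 14 (21.5%) above, against 21.7%. In the same comparison 2 of the 9 genes lay below and 3 above. The median tested coding gene stood at 0.297 to 0.604 FPKM in the libraries labelled shNAT10 and at 2.34 to 2.79 FPKM in shNC. The part of that general difference and of depth in the counts was not tested.

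Few ligand genes had fragments. Of 25 genes for Wnt ligands, R-spondins and their secretion, 21 were listed at 0 in all 6 libraries and 3 were tested (median difference 1.38). WLS, the carrier that brings Wnt proteins to the surface, was the most abundant, at 47.2, 38.5 and 0 FPKM in the libraries labelled shNAT10, against 14.2, 3.07 and 0 in shNC. The ligand genes WNT4 and WNT8B were each above 0 in a single library, WNT4 in one labelled shNAT10 (16.6 FPKM from 10 fragments) and WNT8B in shNC (47.6 FPKM from 5 fragments). The FPKM are as deposited, but with a single library above 0 the recovered fragments are only the smallest whole numbers possible. The lengths recovered with them were 503 nt for WNT4 and 32 nt for WNT8B, so these fragments are uncertain and may be too low.

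Among receptors 7 of 17 were tested, with a median difference of -1.10. The co-receptor LRP5 was at 0.350, 7.36 and 35.2 FPKM, against 4.51, 27.6 and 4.45, with a difference of -0.36 (SE 1.81). LGR4, the R-spondin receptor related to LGR5, was at 18.6, 0 and 1.05 FPKM in the libraries labelled shNAT10, against 5.08, 5.19 and 9.44 in shNC, so unlike LGR5 it was above 0 in 5 of 6 libraries. The groups overlapped for both genes.

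For the destruction complex and Dishevelled list 18 of 22 genes were tested, with a median of -0.79. DVL3, a Dishevelled protein that relays the receptor signal, was at 0, 64.2 and 43.2 FPKM, against 55.0, 27.8 and 21.6. CSNK1G2, a casein kinase at the membrane, was at 24.2, 34.4 and 75.3 FPKM, against 20.1, 0.08003 and 52.5. Both overlapped between the groups. PPP2R1A, the scaffold subunit of the phosphatase PP2A, was at 88.2, 1.35 and 3.37 FPKM, against 6.001, 8.15 and 30.7.

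Nuclear factors were split, with 7 positive and 10 negative differences among 17 tested and a median of -0.39. Their most abundant members were SMARCA4, a chromatin remodeller (difference -0.02, SE 1.63), and CTBP1, a co-repressor (0.40, SE 1.81). PYGO2, a Pygopus protein that docks on the beta-catenin complex, was at 61.5, 0.735 and 0 FPKM in the libraries labelled shNAT10, against 0.489, 0.168 and 37.4 in shNC. Of the inhibitors 4 of 20 were tested (median 0.85), led by KREMEN1 and KREMEN2, receptors for Dickkopf proteins, with differences of 0.32 (SE 1.77) and 1.70 (SE 1.64). NKD1, which binds Dishevelled and is itself induced by Wnt signals, was at 0, 0.958 and 0 FPKM, against 12.6, 3.55 and 9.29, without overlap between the groups (difference -2.78, SE 1.86, limma adjusted p = 0.754).

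The list of other target genes had the lowest median, -1.80 over 16 tested of 32, with 14 negative and 2 positive. Over all tested genes 6179 differences were negative and 4338 positive. Its summed level was 39.3 to 84.0 FPKM in the libraries labelled shNAT10 and 209.9 to 293.9 FPKM in shNC, so the sums did not overlap. The median tested coding gene also stood lower in the libraries labelled shNAT10. The part of that general difference in these sums was not tested. Different genes made up the sums in single shNC libraries. SP5, a direct TCF target, was at 0 in all 3 libraries labelled shNAT10, against 0, 81.0 and 0.567 FPKM in shNC. ID2, an inhibitor of helix-loop-helix factors, was at 0.979, 0 and 3.79 FPKM in the libraries labelled shNAT10, against 38.3, 1.66 and 115 in shNC. Neither passed (limma adjusted p = 0.754 each). JUN, an AP-1 factor, was at 19.1, 0.189 and 15.3 FPKM, against 5.84, 55.3 and 13.4, with overlap.

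**Figure D4:**
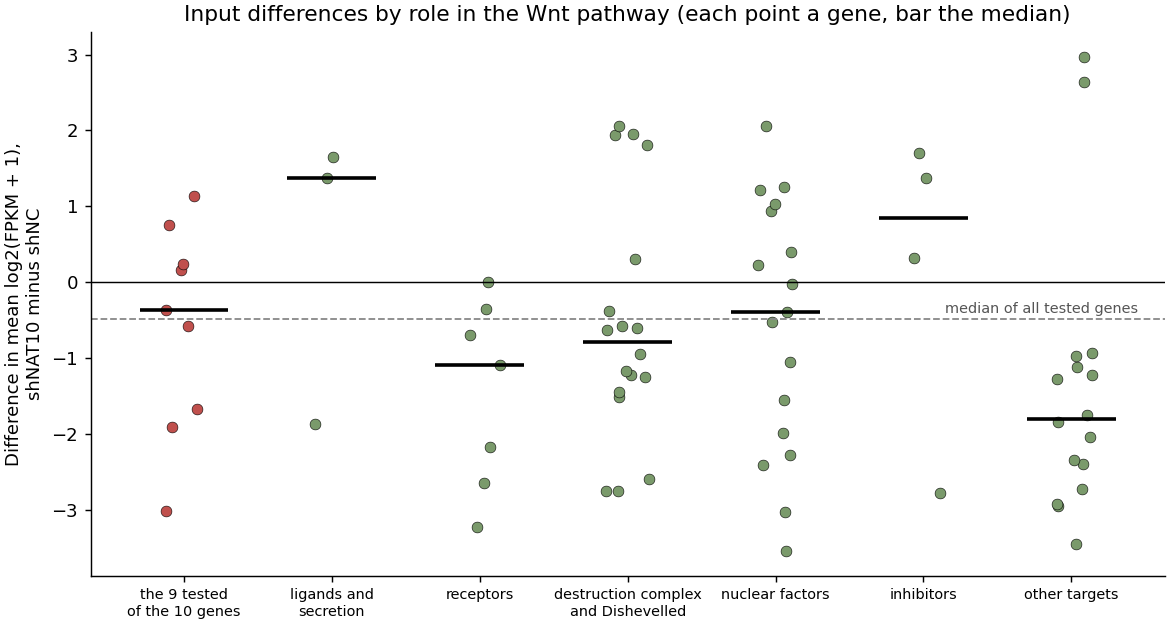
Difference in mean log2(FPKM + 1), shNAT10 minus shNC, for every tested gene of the pathway by role, with the median of each list as a bar. The medians run from -1.80 for other targets to 1.38 for ligands and secretion, where 3 genes were tested, and the dashed line marks -0.49 for all tested genes.

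The authors' deposited table of differential ac4C peaks held a peak in 2 of the 10 genes, RNF43 and TCF7L2, and none in MYC, CCND1, AXIN2, CTNNB1, SOX9, ZNRF3, ASCL2 or LGR5. Of the 8140 tested protein-coding genes 19.1% had a peak there, so 2 of 9 tested genes is near the background. A peak in this table is a region enriched with the ac4C antibody that also passed the authors' test between hairpins, and the folds and changes below are the authors' own. Which hairpin stood in the numerator of the change was not stated, so its sign has no settled direction.

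In RNF43 the authors' deposited table placed the peak at chr17:58415861-58416220 (GRCh38, minus strand), 360 nt of 5' UTR that begin 1314 nt from the 5' end of the RefSeq gene. Its deposited fold was 32.5, against a median of 10.5 over all peaks, and its deposited log2 change was 7.96 with an FDR of 2.51e-44. By that FDR it ranked 138 of 2364 in the authors' deposited table. The authors counted 1 site of their motif there, 4 repeats of a C followed by any 2 bases. Peaks in the 5' UTR made up 3.72% of the table, and 78.4% of them had such a site.

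In TCF7L2 the authors' deposited table had a peak of 180 nt at chr10:113166062-113166241 (plus strand) in the 3' UTR, 1437 nt before the 3' end of the gene. The authors' deposited fold was 12.0, the deposited log2 change 5.77 and the FDR 2.09e-08, with no motif site. Peaks in the 3' UTR were 21.3% of the table, and 55.1% of them had a site. Both changes were positive, as were 38.3% of all peaks in the authors' deposited table (905 of 2364). Input levels beside them were uneven: RNF43 was at 0 in replicate 2 and TCF7L2 at 0 in replicates 2 and 3 labelled shNAT10. How input levels of 0 entered the authors' change was not stated.

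Across the 6 further lists, 21 genes held 24 peaks in the authors' deposited table, 8 with a positive and 16 with a negative change. Coding sequence held 13, the 3' UTR 8 and the 5' UTR 3. Of the 65 tested genes 18 had a peak, a larger share than the 19.1% of tested coding genes. That difference in share was not tested.

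Nuclear factors held the most genes with a peak in the authors' deposited table, 7 of 22 listed. Among tested nuclear factors these were 6 of 17, against 19.1% of tested coding genes. PYGO2 had the largest deposited fold of the pathway, 402, and a deposited log2 change of 9.01 in coding sequence at chr1:154958945-154959095. EP300, a histone acetyltransferase and coactivator of beta-catenin, had 5.38, and CBY1, which binds beta-catenin and opposes it, 4.54. The authors' deposited changes were negative in CREBBP, the paralogue of EP300 (-2.61), and in SMARCA4 (-2.77). They were negative also in the co-repressors CTBP2 (-5.77) and TLE2 (-6.17). Input TLE2 was at 0, 0.496 and 0 FPKM in the libraries labelled shNAT10, against 0.293, 3.62 and 0 in shNC. Input CREBBP was at 0, 0.0862 and 1.08 FPKM, against 6.39, 3.73 and 8.74, and input CTBP2 at 1.31, 0.671 and 0, against 5.37, 12.8 and 22.8. Input CBY1 was at 0.306, 0 and 0.356 FPKM, against 1.51, 25.2 and 41.5, and its deposited FDR was 0.0257. Input EP300 and SMARCA4 overlapped between the groups. The paralogues EP300 and CREBBP thus carried deposited changes of opposite sign, beside unlike input levels. The part of input level in these changes was not tested.

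Receptors gave a like split in the authors' deposited table, with 3' UTR peaks in FZD4 (deposited log2 change -7.27, fold 136) and FZD7 (6.27, fold 54.5). Beside these, input FZD4 was at 0, 17.1 and 3.96 FPKM in the libraries labelled shNAT10, against 4.20, 16.0 and 0 in shNC, and FZD7 was at 0 in all 3, against 0.0766, 31.3 and 1.59. Around the destruction complex the deposited changes were -3.61 in DVL3, -4.36 in PPP2CA, the catalytic subunit of PP2A, and -1.68 and -2.01 in PPP2R1A. TNKS, the tankyrase that marks AXIN for degradation, had 1.85 with a deposited fold of 194 in its 3' UTR. Its deposited FDR was 0.0195, rank 2055 of 2364. Input TNKS was at 0.812, 0 and 0.118 FPKM in the libraries labelled shNAT10, against 10.9, 1.91 and 0.185 in shNC.

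Of the inhibitors, APCDD1 had a deposited log2 change of -6.29 and TPBG 5.32 in the authors' deposited table, both in coding sequence. Beside these, input APCDD1 was at 0, 0 and 0.140 FPKM in the libraries labelled shNAT10, against 0, 0.154 and 0.982 in shNC. Input TPBG was at 16.4, 0 and 0 FPKM, against 0 in all shNC libraries. Targets with negative deposited changes were ID2 (-3.59, 6 motif sites), FOSL1 (-6.39) and the drug exporter ABCB1 (-4.91). Input ABCB1 was at most 0.575 FPKM in any library. JUN also had negative changes, with -4.31 in coding sequence (8 sites) and -1.26 in the 5' UTR. The receptor gene MET had one peak of each sign, -3.12 in a 5' UTR peak of 3 blocks and 1.47 in coding sequence, and YY1 had 6.39 in its 3' UTR. Each role of the wider pathway that held peaks in the authors' deposited table held both signs, while ligands and secretion held no peak.

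**Figure D5:**
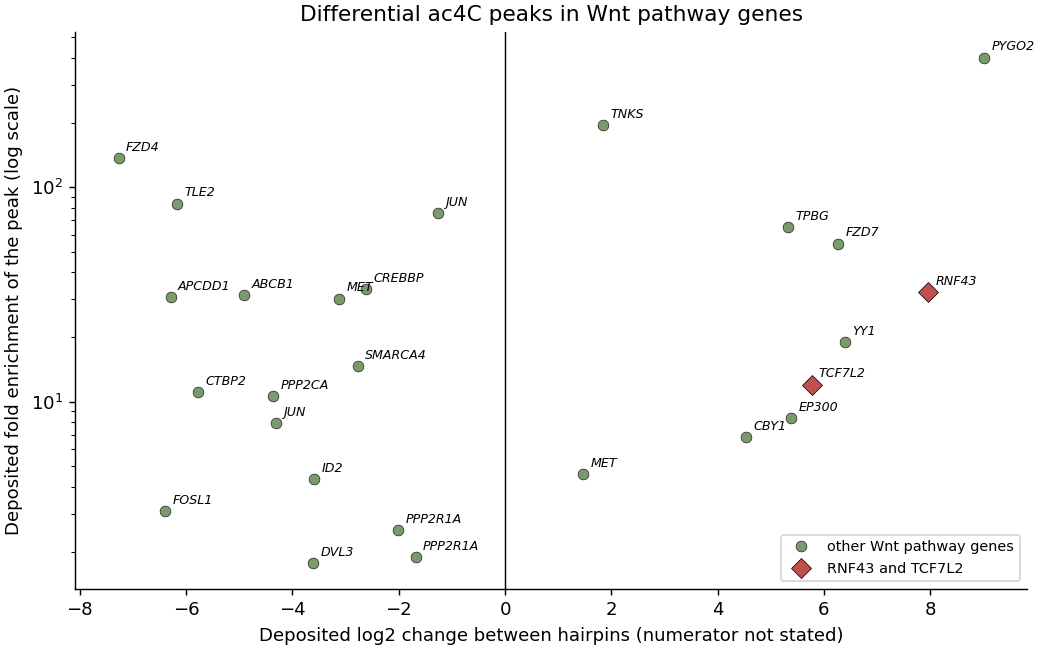
Deposited fold of each peak (log scale) against its deposited log2 change between hairpins, whose numerator was not stated, for every Wnt pathway gene with a peak. RNF43 (7.96, fold 32.5) and TCF7L2 (5.77, fold 12.0) lie on the positive side with 8 other peaks, and 16 peaks lie on the negative side.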

How the data were processed

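Gene levels were deposited by the authors as FPKM per gene for the 6 input libraries, and 0 per-sample columns stayed unmapped. Per the file headers, the peak table gave a p-value of the peak call, the log10 p and FDR of the call and of a differential test (read as a score), a fold enrichment (ratio), a log2 fold change and a count of motif sites. Cutadapt 2.5, HISAT2 2.1.0 and HOMER 4.10.4 and the builds GRCh38 and GRCm38 were named in the submitters' processing notes with no role. How reads were counted, with which annotation, and how peaks were called is not given in the sources used here. Coordinates were read as GRCh38, since 98.4% of 2190 peaks with a RefSeq gene of the same symbol lay within it (RefSeq, GRCh38.p14). Peak positions count from 1 with both ends included.

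Input levels were tested with limma 3.58.1 in R 4.3.3 (lmFit, eBayes with trend, 212.6 prior degrees of freedom) on log2(FPKM + 1), pseudocount 1, after dropping genes whose mean lay under 1 FPKM, and called at a Benjamini-Hochberg adjusted p under 0.05. Fragments were recovered as the smallest whole numbers for a scale per library, set on 13 mitochondrial mRNAs of known length. They came out whole within 0.001 for 1059 of 1059 genes above 0 in 3 or more libraries drawn at random, and for 0 with the scales moved by under 0.1%. Genes above 0 in 1 library, such as LGR5, are less certain. Floors of 3 fragments cover counting error only, and PCR copies were not marked. Both methods were run on simulated data. The simulation for limma drew normal noise with each gene's own spread and did not copy libraries at 0, so it cannot speak to those.

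Named genes were the 10 genes, NAT10, the up to 3 most abundant genes of each pathway list and every listed gene with a peak, 3 genes most like each of the 3 most abundant, and leading markers. Other names were chosen after their values were seen. The 10 genes, lists and tests were chosen with earlier results of these data known. Same-numbered libraries did not deviate together across genes (correlations 0.0012, -0.0214 and 0.0146), so replicate numbers were not taken as pairs.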

Additional observations from a re-analysis of the deposited data

How the results depend on the processing

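The counts of the 10 genes and of the wider pathway past the input test were 0 in all 18 alternatives, among them 0 with a replicate block and 0 with libraries left out. Over all genes the count of 20 was 21 with the replicate block, 7 with a pseudocount of 0.01, 10 at a mean FPKM of at least 5, 0 without a filter or without eBayes trend, 95 by voom, 0 with shNAT10 replicates 2 and 3 both left out, and 1 to 34 with 1 replicate left out (1 without each shNC replicate, 12 and 34 without shNAT10 replicates 1 and 2). Voom and the joint omission were chosen after seeing the data, and in the joint omission a lone library was assumed to vary like shNC. Of 156 recomputed differences of the tested genes, 16 changed sign and none passed. With shNAT10 replicates 2 and 3 left out, AXIN2 was 0.97, RNF43 1.59 and ASCL2 0.90. After quantile normalization, ZNRF3 was 0.17 and ASCL2 0.23. On the TPM scale, CCND1 was -0.03 and SOX9 -0.09, and by voom SOX9 was -0.09. With 1 replicate left out, CCND1 ran from -0.08 to 0.50, SOX9 from -0.55 to 1.24 and CTNNB1 from -0.74 to 2.23. The causes were not tested. The 2 genes with a deposited peak stayed 2 at a differential FDR under 0.01 and at a fold of at least 10, and the 21 wider genes became 17 and 15. Depth limits LGR5, ASCL2 and ZNRF3, each with 0 to 16 fragments in the libraries labelled shNAT10.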

Other observations

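Some pathway genes outside the naming rule are given here as values, chosen after they were seen. APC, the scaffold of the destruction complex, was at 18.8, 0.0537 and 0.268 FPKM in the libraries labelled shNAT10 and at 12.8, 0 and 0.0235 in shNC. That was 325, 1 and 4 fragments, against 540, 0 and 1, so replicate 1 of each hairpin held nearly all of them, and 96.1% of genes of like level had a smaller SD within groups. It had no deposited peak and its difference was 0.30 (SE 1.80, limma adjusted p = 0.966).

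Groups did not overlap for several further genes, none past limma. FZD6, a Frizzled receptor, was at 0 in all 3 libraries labelled shNAT10, against 2.11, 8.76 and 25.6 FPKM in shNC, and L1CAM, an adhesion molecule, was at 0 in all 3, against 27.3, 0.0410 and 14.5. BIRC5, which encodes survivin, was at 0.189, 0.175 and 0.219, against 12.0, 1.04 and 3.44. AXIN1, the partner of AXIN2, was at 2.499, 0 and 0.223, against 6.40, 6.18 and 23.5. In the other direction, VEGFA, the vascular growth factor, was at 1.20, 17.3 and 20.3 FPKM, against 0.0205, 0.591 and 0.101, and FOSL1, a FOS-family factor, at 31.3, 1.41 and 7.52, against 0.157, 0.645 and 0.464. The adjusted p by limma was 0.754 for each of these 6 genes.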
